A study of Homo sapiens with 36 samples.

Results

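Acetaminophen (APAP) is a painkiller whose overdose injures the liver, and mitochondria are known to be among its targets. The transcripts followed here are 34 nuclear-encoded subunits of the mitochondrial respiratory chain and ATP synthase, out of 18919 genes measured. They were taken by identifier from a list of 44 subunits of complexes I to V with cytochrome c, and the other 10 are not analysed here. The list goes by function and its rule uses no measured value, but it was chosen with earlier results of these data known. The deposited table gives no gene names, so each name below is the one the list pairs with its identifier. The 34 comprise 16 genes of complex I, 1 of complex II, 4 of complex III, cytochrome c, 6 of complex IV and 6 of complex V (ATP synthase). Whether the cells express liver markers could not be checked, since no other identifier can be given a name.

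Total RNA of HepG2 cells, an established human line from a liver tumour, was measured on 36 Affymetrix arrays, with 3 arrays in each of 12 groups. The cells were near confluence when their medium was exchanged for fresh medium with 10 mM APAP, 0.5 mM APAP or 0.5% DMSO (the solvent), and were collected after 12, 24, 48 or 72 h. The treatments are given side by side in the labels, so whether APAP medium also held DMSO is unclear. Comparisons with DMSO may therefore include a difference in solvent. The comparison of both doses, given last, uses no DMSO array except in the common estimate of spread. One label text gives 24 h for the RNA isolation of all samples; the times used here are those of the sample titles and time labels. The arrays are described as biological replicates of 1 cell line, and the labels do not say whether they came from separate passages or plates, so the p-values measure the spread between these samples. HepG2 cells are known to have little of the enzyme activity that turns APAP into its reactive metabolite, which limits them as a model of overdose.

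The respiratory chain sits in the inner mitochondrial membrane. Complex I takes electrons from NADH and complex II from succinate; both pass them to ubiquinone, complex III hands them to the small soluble protein cytochrome c, and complex IV delivers them to oxygen. Complexes I, III and IV pump protons, and complex V uses the returning protons to make ATP. Most subunits are encoded in the nucleus and imported, and a small set, which is not part of this list, is encoded in mitochondrial DNA. In liver the chain supports the energy demand of urea, glucose and lipid metabolism.

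All values are log2 levels, and a difference of 1 is a doubling; each change is a difference of group means with its standard error from a linear model over all 36 arrays (limma). A gene is called higher or lower when its p-value, adjusted over all 18919 genes by the Benjamini-Hochberg method, is below 0.05. Levels of different genes are not compared, because each probe set has its own brightness. Arrays of a group correlated with r of 0.991 or more, and the median standard error of a member's difference between 2 groups was 0.10. The mean levels of NDUFA10 (2.94) and ATP5F1 (3.04) lay below the array medians of 3.32 to 3.46, so their changes have little meaning without a detection call. Arrays measure RNA scaled to a common distribution, so fewer cells and less RNA per cell cannot be told apart. Spike-in control rows were weak in 6 arrays, 4 of them at 10 mM and 2 in DMSO, and the actin control rows differed strongly between their 3' and 5' ends in 2 arrays at 0.5 mM (3.63 and 3.97, against 1.49 to 2.45 in the others). The same difference for GAPDH ran from -0.02 to 0.41 at 10 mM and from -0.14 to 0.23 in DMSO. The results were also computed without the 6 or the 2 arrays; the part of the GAPDH difference was not tested.

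DMSO 48 h replicate 1 stood apart from its group: its mean over the members was 9.52, against 9.79 and 9.72 in the other 2, and it lay within the range of the DMSO 72 h arrays. It is also 1 of the 6 arrays with weak spike-ins. It enters the comparisons with DMSO at 48 h and the averages, and the contrast of 12 with 72 h does not use it except through the common spread. Without it, 4 members were called higher and 5 lower at 10 mM and 48 h, 10 higher and 17 lower in the 10 mM average, and 1 higher in the 0.5 mM average, against 6 and 5, 10 and 15, and 3 with it. The 2 arrays at 0.5 mM with a large actin difference read above their groups. Their means over the members were 9.83 against 9.68 and 9.68 at 48 h, and 9.68 against 9.50 and 9.54 at 72 h. Without them the members' median change at 0.5 mM and 72 h was -0.02, against 0.03 with them.

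The first comparison asked how 10 mM APAP moved these transcripts at each time. The subunits did not move as a block. Early on, more members were lower than in DMSO than higher, and by 72 h more were higher, though not after median centring. ATP5D, NDUFB10 and NDUFS1 were lower at all 4 times, CYCS and NDUFA2 were higher at all 4, and CYC1 and NDUFS6, which were far below DMSO at 12 h, had levels close to those of DMSO at 72 h.

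After 12 h of 10 mM, 2 of the 34 members were called higher and 12 lower, against a background of 14.2% and 12.4% of all genes. The counts after 24 h were 3 up and 8 down (background 15.3% and 13.7%), those after 48 h 6 up and 5 down (16.3% and 14.9%), and those after 72 h 9 up and 4 down (17% and 16.5%). The median change of the members was -0.18, -0.13, -0.01 and 0.06 at the 4 times, beside 0.01, -0.01, 0.01 and -0.01 over all genes. The 12 of 34 called lower at 12 h, the 8 of 34 called lower at 24 h and the 9 of 34 called higher at 72 h lay above the background shares, and the other counts lay nearer to them or below. Those shares cover genes of all levels, whereas all but 2 members lay above the median mean level. With only genes above it tested, 14, 11, 13 and 14 of 32 members were called at the 4 times. The genes called were then 4571, 4933, 5258 and 5510, beside 5028, 5482, 5899 and 6323 over all levels. Genes at or below the median mean level were not among those tested, so the former counts are larger shares than the latter. At each of the 4 times the members' share, in either direction, lay below that of the genes tested there. Shares of those genes by direction were not computed. A count above a share over all genes, here or below, may thus go with level, which was not tested. Averaged over times, 10 members were higher and 15 lower (23.8% and 22.1% of all genes), with a median of -0.10 beside 0.00. In all, 27 members were called at 1 time or more and 7 at none, and 0 were called in opposite directions at different times. Over all genes, 50% were called at 1 time or more and 2.92% in opposite directions. These 2 shares again cover genes of all levels. In the average over times, with only genes above the median mean level tested, 23 of 32 members and 7023 genes were called. The members' share was near that of the genes tested there. Over all levels 8670 genes were called.

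The split of directions depended on scaling. A second quantile normalization gave 4 higher and 11 lower members for 12 h, and 4 and 6 for 24 h. Median centring of the arrays gave 5 higher and 7 lower for 48 h, and 7 and 7 for 72 h, so the excess of higher members at 72 h was not seen there. With only the 9 arrays of 48 h in the fit, 7 members were called at that time, 3 higher and 4 lower. Some calls did not hold when 1 array was left out. Those of NDUFS7 at 12 h and COX7C at 24 h were lost without any one of the 6 arrays compared. At 12 h, at least 1 array could not be left out without losing NDUFS7 (limma, adjusted p up to 0.128), NDUFA9 (0.156), NDUFA10 (0.253) and ATP5C1 (0.294). At 24 h this held for NDUFA1 (0.137), NDUFA4 (0.189) and COX7C (0.131). The same was true of NDUFB5 (0.196), CYC1 (0.183), COX4I1 (0.128) and COX7A2 (0.374) at 48 h, and of NDUFS8 (0.113), NDUFV1 (0.0901), UQCRC2 (0.131) and COX5B (0.0649) at 72 h. Without the 6 arrays with weak spike-ins the counts at the 4 times were 2, 2, 4 and 7 higher and 9, 7, 6 and 4 lower.

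**Figure D1:**
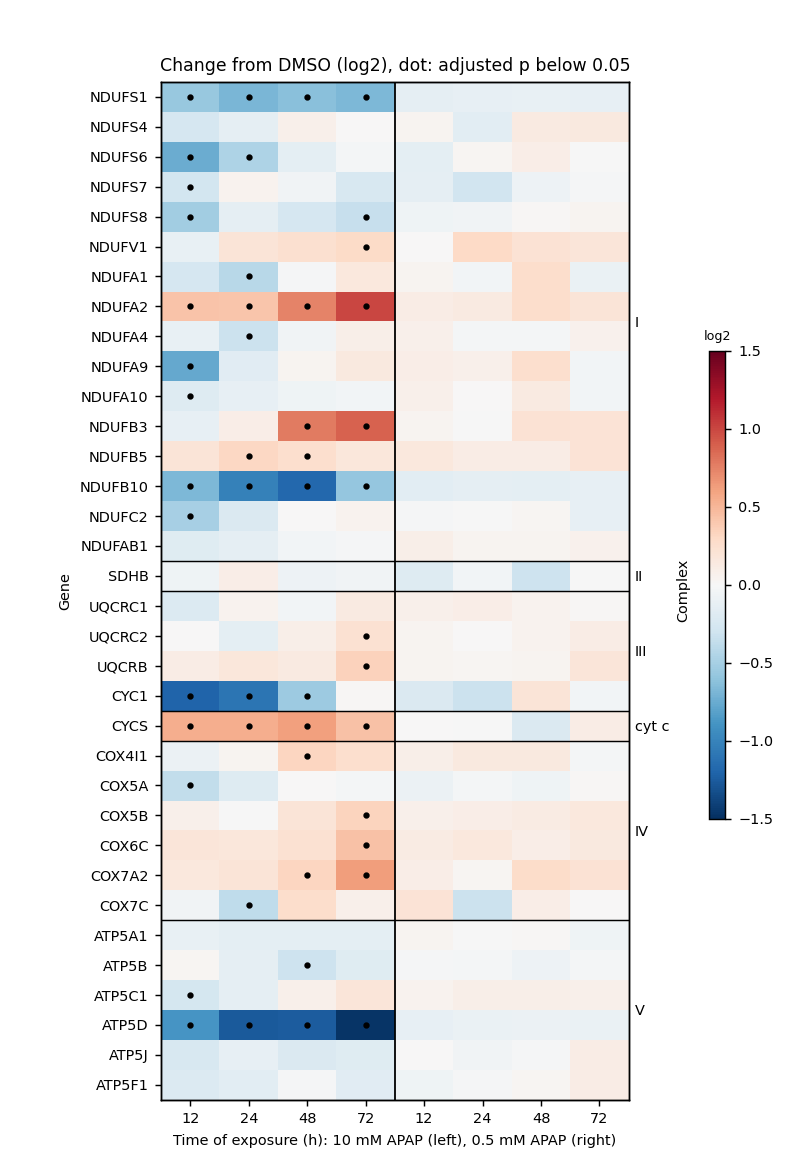
Difference from DMSO (log2, colour) of each of the 34 subunits (rows, by complex) at 12, 24, 48 and 72 h of 10 mM APAP (left 4 columns) and 0.5 mM APAP (right 4 columns); a black dot marks an adjusted p below 0.05, each group being 3 arrays. At 10 mM the counts of dots are 14, 11, 11 and 13, and at 0.5 mM there is no dot.

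In complex I, 12 of the 16 members were called in the average over times, 4 of them higher and 8 lower, where 23.8% and 22.1% of all genes were. These 2 shares cover genes of all levels. The share called in either direction was higher among genes above the median mean level. The 8 include NDUFA10, which lay below the array medians, and NDUFS7. The call of NDUFS7 was lost without any one of 11 arrays (limma, adjusted p up to 0.095). NDUFS7 and NDUFV1, the latter called higher, were not called in the average without the 6 arrays with weak spike-ins. NDUFS1 (identifier ENSG00000023228_at), the largest iron-sulfur subunit of the arm that receives electrons from NADH, was lower throughout. Its arrays in DMSO read 9.45, 9.35 and 9.32 after 12 h, 9.33, 9.34 and 9.28 after 24 h, 9.21, 9.22 and 9.11 after 48 h, and 9.22, 9.16 and 9.07 after 72 h. At 10 mM they read 8.92, 8.75 and 8.76 after 12 h, 8.61, 8.59 and 8.69 after 24 h, 8.65, 8.47 and 8.54 after 48 h, and 8.53, 8.46 and 8.46 after 72 h. Every 10 mM array thus lay below every DMSO array of its time. The changes were -0.56, -0.69, -0.63 and -0.67 at 12, 24, 48 and 72 h, with an average of -0.64 ± 0.05 (SE, n = 3 arrays per group; adjusted p = 3.46e-13), which is 1.55-fold lower.

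NDUFB10 (ENSG00000140990_at), an accessory subunit of the membrane arm, showed the largest fall of complex I. In DMSO its arrays read 9.72, 10.04 and 9.57 after 12 h, 9.25, 9.35 and 9.49 after 24 h, 8.82, 9.14 and 9.05 after 48 h, and 8.67, 8.69 and 8.69 after 72 h. The arrays at 10 mM read 9.21, 9.08 and 9.0 after 12 h, 8.17, 8.28 and 8.61 after 24 h, 7.72, 8.01 and 7.74 after 48 h, and 8.02, 8.13 and 8.15 after 72 h. There was no overlap at any time, although the level in DMSO itself went down with time. The changes were -0.68, -1.01, -1.18 and -0.58, and the average was -0.86 ± 0.06 (SE; adjusted p = 4.67e-13).

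NDUFA2 (ENSG00000131495_at), a small accessory subunit of the NADH-oxidising arm, moved the other way. Its DMSO arrays read 10.28, 10.28 and 10.10 after 12 h, 10.24, 10.19 and 10.11 after 24 h, 9.75, 9.87 and 9.82 after 48 h, and 9.65, 9.32 and 9.61 after 72 h. Its 10 mM arrays read 10.60, 10.68 and 10.66 after 12 h, 10.57, 10.70 and 10.51 after 24 h, 10.63, 10.56 and 10.49 after 48 h, and 10.47, 10.60 and 10.51 after 72 h. The 10 mM arrays were the higher ones at each time without overlap, and they varied little between times while the DMSO arrays went down. The difference was 0.42, 0.41, 0.75 and 1.0 at the 4 times and 0.65 ± 0.04 (SE; adjusted p = 2.11e-14) on average, a 1.56-fold higher level.

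NDUFB3 (ENSG00000119013_at), a small subunit of the membrane arm, differed from DMSO late. In DMSO it read 11.86, 11.86 and 11.81 after 12 h, 11.71, 11.72 and 11.76 after 24 h, 10.65, 11.02 and 11.26 after 48 h, and 10.32, 10.88 and 10.89 after 72 h, and at 10 mM 11.74, 11.65 and 11.77 after 12 h, 11.84, 11.80 and 11.84 after 24 h, 11.91, 11.62 and 11.74 after 48 h, and 11.29, 11.70 and 11.77 after 72 h. At 24, 48 and 72 h all 10 mM arrays were above all DMSO arrays, while at 12 h they were all below them by a small margin. The changes were -0.12, 0.10, 0.78 and 0.89, of which those at 48 h (adjusted p = 1.32e-05) and 72 h (adjusted p = 1.51e-06) passed the test.

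NDUFS6 (ENSG00000145494_at), an accessory subunit of the NADH-oxidising arm, differed from DMSO early. Its arrays in DMSO read 9.45, 9.70 and 9.59 after 12 h, 8.91, 9.37 and 9.35 after 24 h, 8.47, 8.74 and 8.89 after 48 h, and 8.74, 8.68 and 8.82 after 72 h. At 10 mM they read 8.78, 8.96 and 8.78 after 12 h, 8.67, 8.76 and 8.80 after 24 h, 8.47, 8.76 and 8.42 after 48 h, and 8.63, 8.87 and 8.65 after 72 h. The groups were apart at 12 and 24 h and overlapped at 48 and 72 h. Its changes were -0.74, -0.47, -0.15 and -0.03, with adjusted p-values of 4.04e-05 at 12 h and 0.00534 at 24 h; the first was 1.67-fold. NDUFC2, a membrane arm subunit, was lower at 12 h alone (-0.50 ± 0.09, adjusted p = 0.000117), with arrays of 9.54, 9.41 and 9.70 against 10.03, 10.07 and 10.05.

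NDUFA9, an accessory subunit at the junction of both arms, was lower at 12 h with a change of -0.76 ± 0.24. Its arrays at that time read 7.93, 7.96 and 8.32 at 10 mM and 8.68, 9.27 and 8.55 in DMSO, so the groups did not overlap but the DMSO arrays were widely spread. The adjusted p of 0.0188 became 0.156 when the second DMSO array of 12 h was left out, and 0.0712 or 0.0691 when the first or the second 10 mM array of that time was. At 24, 48 and 72 h the changes of NDUFA9 were -0.17, 0.04 and 0.15, none of them called. NDUFS8, which carries iron-sulfur clusters towards ubiquinone, was lower at 12 h (-0.52) and 72 h (-0.35), and NDUFV1, which binds the flavin that first accepts electrons from NADH, was higher at 72 h (0.29).

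Of the remaining complex I members, NDUFB5, a membrane arm subunit, was higher at 24 h (0.31) and 48 h (0.25). NDUFA1, also of the membrane arm, and NDUFA4 were lower at 24 h only (-0.41 and -0.32); NDUFA4 is listed with complex I by its name, but it is now assigned to complex IV and RefSeq names it COXFA4. NDUFS7, an iron-sulfur subunit, and NDUFA10, an accessory subunit, were lower at 12 h only (-0.28 and -0.19). NDUFS4, an accessory subunit of the NADH-oxidising arm, and NDUFAB1, the mitochondrial acyl carrier protein, passed the test at no single time, with changes of -0.25, -0.14, 0.07 and 0.00 and -0.18, -0.14, -0.04 and -0.01; in the average NDUFAB1 was called lower at -0.09 ± 0.03 (SE; adjusted p = 0.0242), and without 1 of 3 arrays it was not (adjusted p up to 0.0522).

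**Figure D2:**
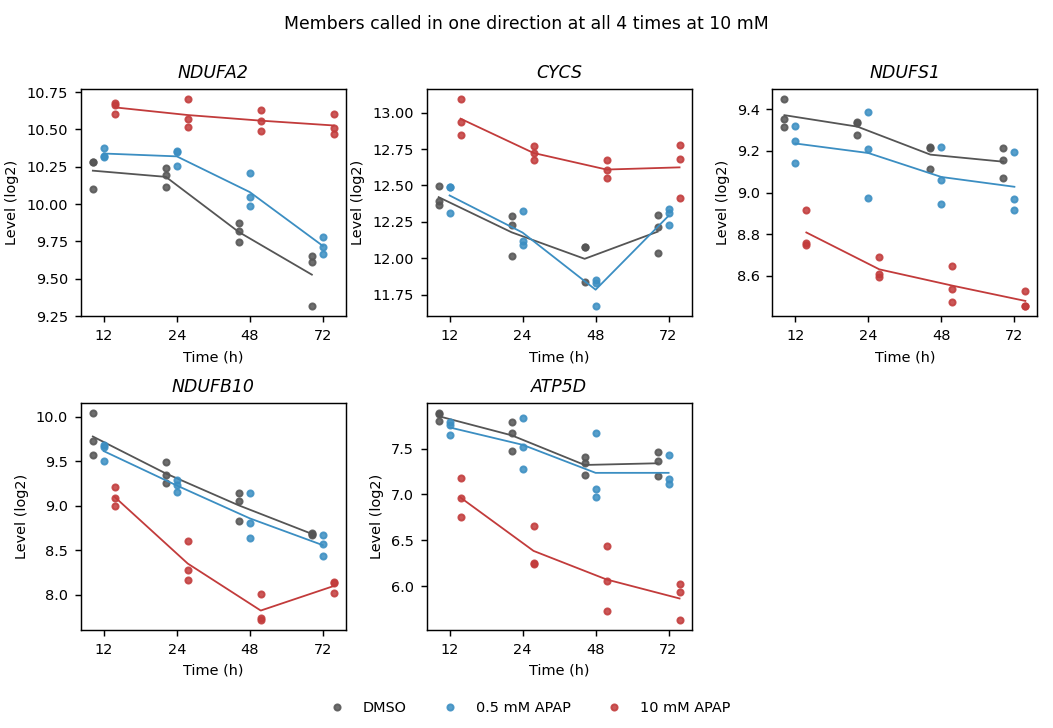
Log2 level by array (points) and group mean (lines) of the 5 subunits called in one direction at all 4 times at 10 mM, against time in hours, for DMSO (grey), 0.5 mM APAP (blue) and 10 mM APAP (red), 3 arrays per group. The red points lie above the grey ones for NDUFA2 and CYCS and below them for NDUFS1, NDUFB10 and ATP5D at each time, and the blue points lie nearer to the grey than to the red ones.

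Complex II was represented by SDHB alone, the iron-sulfur subunit of succinate dehydrogenase, whose changes of -0.07, 0.10, -0.08 and -0.06 passed the test at no time. Among the 4 members of complex III, CYC1 (ENSG00000179091_at), which holds the heme of cytochrome c1, fell most. Its DMSO arrays read 10.48, 10.48 and 10.23 after 12 h, 10.75, 10.42 and 10.72 after 24 h, 9.40, 9.88 and 10.22 after 48 h, and 9.37, 9.12 and 9.33 after 72 h. Its 10 mM arrays read 8.83, 9.26 and 9.50 after 12 h, 9.63, 9.62 and 9.34 after 24 h, 9.10, 9.65 and 9.12 after 48 h, and 9.42, 9.29 and 9.16 after 72 h. They were far apart at 12 and 24 h and interleaved at 72 h, with the DMSO level down to that of the treated cells. The changes were -1.20, -1.10, -0.54 and 0.02, with adjusted p-values of 3.65e-06 at 12 h, 1.11e-05 at 24 h and 0.0181 at 48 h; at 12 h the level was 2.3-fold lower. The call at 48 h was lost in the fit of that time alone and without DMSO 48 h replicate 3 (-0.35, adjusted p = 0.183), DMSO replicate 2 (0.0527) or 10 mM replicates 1 (0.097) or 3 (0.0883).

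UQCRB (ENSG00000156467_at), a subunit that binds ubiquinone, was called higher at 72 h and in the average (0.19 ± 0.04, adjusted p = 0.000279). It read 6.14, 6.36 and 6.14 after 12 h, 6.26, 6.18 and 6.22 after 24 h, 6.11, 6.31 and 6.24 after 48 h, and 5.77, 5.87 and 6.09 after 72 h in DMSO, and 6.36, 6.40 and 6.22 after 12 h, 6.30, 6.49 and 6.35 after 24 h, 6.39, 6.32 and 6.37 after 48 h, and 6.23, 6.31 and 6.22 after 72 h at 10 mM. The groups did not overlap at 24, 48 and 72 h, but the gap was small. UQCRC1 and UQCRC2, the core proteins of the complex, had average changes of -0.01 ± 0.06 and 0.05 ± 0.04, neither called; UQCRC2 was called higher at 72 h (0.23).

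CYCS (ENSG00000172115_at) encodes cytochrome c, which carries electrons from complex III to complex IV and, when released into the cytosol, starts apoptosis. Its arrays in DMSO read 12.39, 12.50 and 12.37 after 12 h, 12.01, 12.29 and 12.23 after 24 h, 12.07, 12.08 and 11.84 after 48 h, and 12.03, 12.22 and 12.30 after 72 h. At 10 mM they read 12.85, 12.94 and 13.09 after 12 h, 12.68, 12.77 and 12.72 after 24 h, 12.61, 12.67 and 12.55 after 48 h, and 12.41, 12.68 and 12.78 after 72 h. At every time the 10 mM arrays were the higher ones without overlap. The changes were 0.54, 0.55, 0.61 and 0.44 and the average 0.54 ± 0.05 (SE; adjusted p = 1.01e-10), which is 1.45-fold. CYCS has many processed pseudogenes, and whether its probes also read any of them could not be checked.

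In complex IV (cytochrome c oxidase), 4 of the 6 members were higher and 1 lower in the average over times, where 23.8% and 22.1% of all genes were. As for complex I, these shares cover genes of all levels. The average call of COX4I1 was lost without any one of 9 arrays (limma, adjusted p up to 0.0764). COX7A2 (ENSG00000112695_at), a small subunit, had the largest change. In DMSO it read 12.34, 12.24 and 12.25 after 12 h, 12.33, 12.33 and 12.33 after 24 h, 11.70, 12.34 and 12.20 after 48 h, and 11.74, 11.69 and 11.88 after 72 h, and at 10 mM 12.41, 12.34 and 12.55 after 12 h, 12.44, 12.70 and 12.44 after 24 h, 12.49, 12.40 and 12.32 after 48 h, and 12.40, 12.48 and 12.32 after 72 h. The groups were apart at 24 and 72 h. The changes were 0.16, 0.19, 0.32 and 0.63, with 0.33 ± 0.05 (SE; adjusted p = 7.28e-06) on average, and the call at 48 h was lost without DMSO 48 h replicate 1 (0.13, adjusted p = 0.374) or without 10 mM replicates 1 (0.0977) or 2 (0.0507).

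COX6C (ENSG00000164919_at), another small subunit, read 11.75, 12.06 and 11.80 after 12 h, 11.88, 11.83 and 11.85 after 24 h, 11.63, 11.80 and 11.62 after 48 h, and 11.47, 11.37 and 11.45 after 72 h in DMSO and 12.02, 11.99 and 12.15 after 12 h, 11.89, 12.21 and 11.98 after 24 h, 11.79, 12.07 and 11.86 after 48 h, and 11.86, 11.91 and 11.84 after 72 h at 10 mM. It was called higher at 72 h (0.44, adjusted p = 0.000243), where the groups did not overlap, and its other changes were 0.18, 0.17 and 0.22. COX4I1, the subunit that binds nucleotides and tunes the enzyme's activity, was called higher at 48 h (0.33) and COX5B, a matrix-side subunit, at 72 h (0.33). In the average, COX4I1 and COX5B were not called after median centring, and neither they nor COX5A were called without the 6 arrays with weak spike-ins. COX5A, also on the matrix side, was the member called lower, at 12 h and in the average (-0.15 ± 0.05, adjusted p = 0.0174). Its arrays read 5.96, 5.97 and 5.77 after 12 h, 5.65, 5.92 and 5.75 after 24 h, 5.70, 5.64 and 5.46 after 48 h, and 5.55, 5.71 and 5.68 after 72 h in DMSO and 5.45, 5.66 and 5.48 after 12 h, 5.59, 5.39 and 5.74 after 24 h, 5.51, 5.62 and 5.68 after 48 h, and 5.46, 5.70 and 5.71 after 72 h at 10 mM, so only the 12 h groups were apart. COX7C, a small subunit, was lower at 24 h alone (-0.38).

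In complex V, 5 of 6 members were lower and 0 higher in the average over times, where 22.1% of all genes were lower and 23.8% higher. As for complex I, these shares cover genes of all levels. ATP5J was not called after a second quantile normalization. ATP5F1 was not called with array weights or without the 6 arrays with weak spike-ins. ATP5D (ENSG00000099624_at), the delta subunit of the rotating central stalk, had the largest change of all 34 members. Its DMSO arrays read 7.88, 7.79 and 7.88 after 12 h, 7.48, 7.79 and 7.67 after 24 h, 7.21, 7.41 and 7.35 after 48 h, and 7.36, 7.20 and 7.46 after 72 h. At 10 mM they read 7.17, 6.96 and 6.76 after 12 h, 6.26, 6.65 and 6.24 after 24 h, 6.05, 6.44 and 5.73 after 48 h, and 5.94, 5.64 and 6.03 after 72 h. The groups did not overlap at any time, and the gap was wider at 72 h than at 12 h. The changes were -0.89, -1.26, -1.25 and -1.47, and the average of -1.22 ± 0.08 (SE; adjusted p = 2.24e-13) is 2.32-fold. A difference between times in the ATP5D effect was not shown (moderated F test, adjusted p = 0.324).

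The other complex V members moved much less. ATP5J (ENSG00000154723_at), coupling factor 6 of the peripheral stalk, read 13.33, 13.17 and 13.24 after 12 h, 13.19, 13.02 and 13.08 after 24 h, 12.60, 13.05 and 13.11 after 48 h, and 12.50, 12.77 and 12.92 after 72 h in DMSO and 13.17, 12.97 and 12.87 after 12 h, 12.81, 12.91 and 13.20 after 24 h, 12.71, 12.67 and 12.72 after 48 h, and 12.16, 12.74 and 12.72 after 72 h at 10 mM. It was apart from DMSO at 12 h only, and its average change of -0.19 ± 0.07 (SE; adjusted p = 0.0245) missed the threshold without any one of 4 arrays (10 mM APAP 24 h replicate 1 and 72 h replicate 1, DMSO 48 h replicate 3 and 72 h replicate 3; adjusted p from 0.0526 to 0.0661). The catalytic subunits ATP5A1 (alpha) and ATP5B (beta) had average changes of -0.14 ± 0.03 and -0.15 ± 0.04, both called, and ATP5C1, the gamma subunit of the central stalk, -0.03 ± 0.05, not called. ATP5F1, subunit b of the peripheral stalk, was called lower in the average (-0.14 ± 0.05) but lay below the array medians, and the call was lost without any one of 13 arrays (adjusted p up to 0.104). ATP5D and ATP5C1 belong to the same stalk, and at 72 h their changes were -1.47 and 0.18.

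In all, 2 members (CYCS and NDUFA2) were called higher and 3 (ATP5D, NDUFB10 and NDUFS1) lower at all 4 times, where 6.22% and 5.39% of all genes were. These shares, 2 and 3 of 34, lie near the background. At 72 h, 3 complex I members were higher and 3 lower, and ATP5D was the 1 complex V member called.

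The promoters of the members called at all 4 times are shown because these genes kept one direction at 10 mM. The sequences are from RefSeq (GRCh38.p14) and hold 250 bases before and 50 after a transcription start, written 5' to 3' on the gene's strand; the table holds none for ATP5D. Both promoters listed for NDUFS1 are on the minus strand of chromosome 2, and the one at chr2:206159395-206159694 is printed. NDUFA2 is at chr5:140647581-140647880 (minus strand), NDUFB10 at chr16:1959288-1959587 (plus strand) and CYCS at chr7:25125211-25125510 (minus strand). Capitals mark the core of the motif of NRF1, a factor known to act on respiratory chain genes (GCATGCGC or its reverse complement GCGCATGC), and of the ETS family (CCGGAAG or CTTCCGG).

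NDUFS1: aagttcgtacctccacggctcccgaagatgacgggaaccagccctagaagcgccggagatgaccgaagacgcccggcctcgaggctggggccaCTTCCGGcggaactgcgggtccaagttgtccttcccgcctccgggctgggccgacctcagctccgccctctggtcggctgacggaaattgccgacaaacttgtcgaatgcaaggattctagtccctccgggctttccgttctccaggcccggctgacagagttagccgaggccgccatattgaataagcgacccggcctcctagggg
NDUFB10: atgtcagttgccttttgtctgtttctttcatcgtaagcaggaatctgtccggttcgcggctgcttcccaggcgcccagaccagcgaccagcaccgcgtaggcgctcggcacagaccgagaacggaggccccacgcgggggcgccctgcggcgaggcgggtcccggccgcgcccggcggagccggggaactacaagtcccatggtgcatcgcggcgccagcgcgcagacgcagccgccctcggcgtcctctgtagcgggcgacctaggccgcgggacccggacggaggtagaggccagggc
NDUFA2: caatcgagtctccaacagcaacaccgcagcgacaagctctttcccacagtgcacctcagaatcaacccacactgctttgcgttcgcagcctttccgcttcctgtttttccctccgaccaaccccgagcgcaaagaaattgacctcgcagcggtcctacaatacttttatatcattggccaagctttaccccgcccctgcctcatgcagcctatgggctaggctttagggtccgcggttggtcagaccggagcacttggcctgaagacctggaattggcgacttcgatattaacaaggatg
CYCS: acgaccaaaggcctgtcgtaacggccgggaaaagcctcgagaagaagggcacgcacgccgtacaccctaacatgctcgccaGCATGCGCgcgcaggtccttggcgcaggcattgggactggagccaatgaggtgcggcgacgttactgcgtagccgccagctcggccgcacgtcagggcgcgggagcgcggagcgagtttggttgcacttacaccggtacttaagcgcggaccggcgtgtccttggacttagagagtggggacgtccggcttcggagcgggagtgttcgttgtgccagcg

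CYCS holds 1 NRF1 core and NDUFS1 holds 1 ETS core in its first listed promoter, while NDUFB10 and NDUFA2 hold neither motif. All 34 members matched a RefSeq gene, on 16 chromosomes, and 27 had a promoter in the table. The NRF1 core was in 7 of the 27 (25.9%), beside 4.89% of 15843 protein-coding genes with a promoter there and 3.68% of all 27305 genes. The ETS core was in 7 of the 27 (25.9%), beside 16.5% of the protein-coding genes and 12.2% of all. The members with an NRF1 core were NDUFS6, NDUFS7, SDHB, CYCS, COX5B, ATP5C1 and ATP5J; in the 10 mM average CYCS and COX5B were called higher, NDUFS6, NDUFS7 and ATP5J lower, and SDHB and ATP5C1 were not called. A match is only a string of letters, and no binding was measured.

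The second question was how the members changed with time in each treatment. In DMSO the transcripts declined: from 12 to 72 h 19 of 34 members were lower and 0 higher (limma; 25 members at an unadjusted p below 0.05 in either direction, beside 37.3% of all genes), while 14.9% of all genes were lower and 15.6% higher. The median change was -0.29 beside 0.02 over all genes. After a second quantile normalization 16 members were lower and 2 higher. At 0.5 mM 18 were lower and 1 higher (15.2% and 14.6% of all genes) with a median of -0.25, and after the second quantile normalization 13 and 4. At 10 mM 10 were lower and 2 higher (11.6% and 10.7% of all genes) with a median of -0.08, and 8 and 4 after that normalization. The mean over the 34 members went from 9.89, 9.98 and 9.84 at 12 h to 9.51, 9.47 and 9.60 at 72 h in the DMSO arrays. In the 10 mM arrays it went from 9.66, 9.70 and 9.71 to 9.54, 9.60 and 9.59.

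The largest decline in DMSO was that of a complex I member. NDUFA9 (ENSG00000139180_at) fell by 1.36 on the log2 scale (SE 0.24, adjusted p = 4.51e-05), with arrays of 8.68, 9.27 and 8.55 after 12 h, 8.31, 8.67 and 8.42 after 24 h, 7.01, 8.16 and 8.28 after 48 h, and 7.41, 7.31 and 7.70 after 72 h. NDUFB3 changed by -1.14 ± 0.13 (SE; adjusted p = 2.05e-08) and CYC1 of complex III by -1.12 ± 0.18 (SE; adjusted p = 6.84e-06), both of whose arrays are given above. NDUFB10 (-1.09), NDUFS6 (-0.83), NDUFA4 (-0.78), NDUFA1 (-0.73) and NDUFA2 (-0.70) fell as well. In all, 8 of 16 complex I members, SDHB, 3 of 4 complex III members, 3 of 6 of complex IV and 4 of 6 of complex V were lower at 72 h. The falls of UQCRB (adjusted p up to 0.0628), COX5B (0.0916), ATP5B (0.188), ATP5D (0.0876) and ATP5J (0.0507) were not called without 1 of the arrays: DMSO 12 h replicate 2 for UQCRB, COX5B and ATP5B, DMSO 12 h replicates 1 and 3 for ATP5D, DMSO 72 h replicate 1 for UQCRB, ATP5B and ATP5J, and DMSO 72 h replicate 2 for ATP5B and ATP5D.

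At 10 mM, 12 members were called to change over the same interval. The arrays of NDUFB3 at 10 mM changed by -0.13 from 12 to 72 h, those of CYC1 by 0.10, those of NDUFS6 by -0.12 and those of NDUFA2 by -0.12, none of them called. NDUFA9 read 7.93, 7.96 and 8.32 after 12 h, 8.34, 8.51 and 8.05 after 24 h, 7.52, 8.4 and 7.66 after 48 h, and 7.65, 7.51 and 7.71 after 72 h at 10 mM and 8.87, 8.95 and 8.99 after 12 h and 7.34, 7.39 and 7.56 after 72 h at 0.5 mM. NDUFB10 fell by a similar amount in all 3 treatments (-1.09 in DMSO, -1.05 at 0.5 mM and -1.0 at 10 mM). ATP5D fell by 1.10 at 10 mM (adjusted p = 1.18e-05) and by 0.51 in DMSO. NDUFC2 (0.43) and NDUFS4 (0.39) rose at 10 mM, the latter not without 1 of 2 arrays (adjusted p up to 0.0665).

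**Figure D3:**
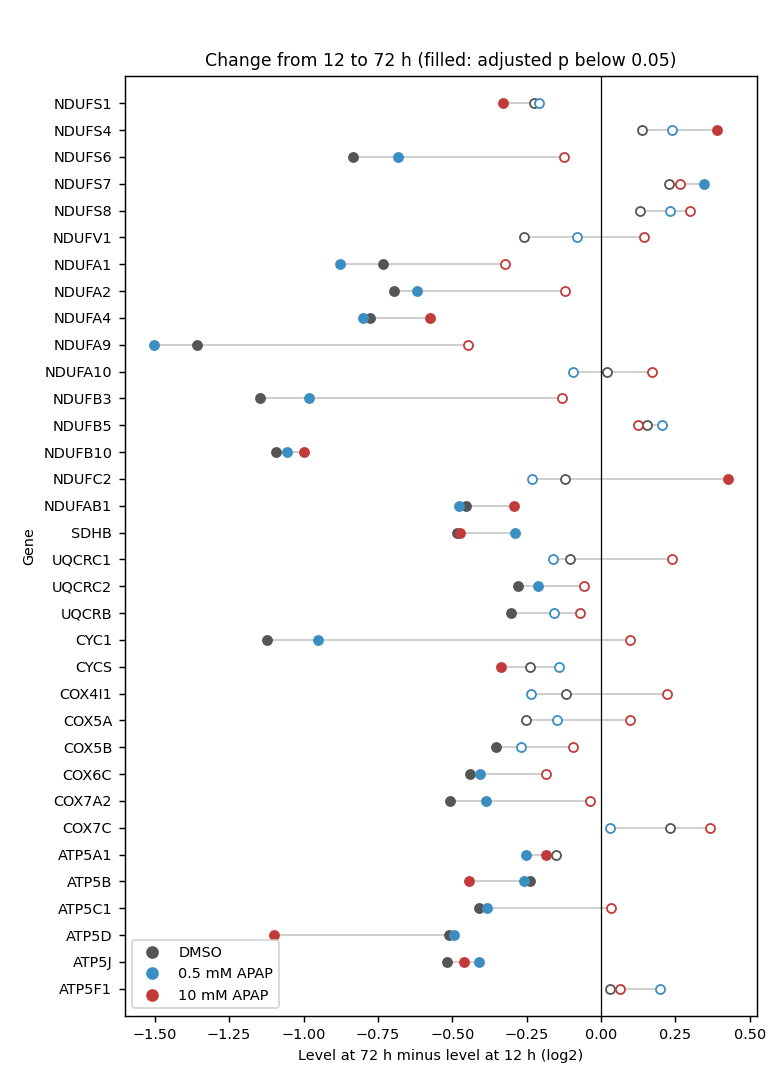
Change in log2 level from 12 to 72 h of each subunit in DMSO (grey), 0.5 mM APAP (blue) and 10 mM APAP (red), 3 arrays per group and time; filled circles have an adjusted p below 0.05. The circles lie right of 0 for 7 members in DMSO, 6 at 0.5 mM and 14 at 10 mM, and left of it for the others.

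Whether the 10 mM effect itself differed between times was tested with a moderated F test, which 6 of the 34 members passed, where 21.3% of all genes did: NDUFB3 (adjusted p = 7.94e-05), NDUFA2 (0.000385), CYC1 (0.0011), NDUFC2 (0.00757), NDUFS6 (0.0143) and NDUFB10 (0.0331). With the replicate number as a block, the paired design, 11 members and 4928 of the 18919 genes passed, and with array weights 10 members and 5117 genes. The share of 6 in 34 is near the background. NDUFB10 and NDUFC2 were not called without the 6 arrays with weak spike-ins. NDUFB10 missed the threshold without any one of 11 arrays (adjusted p up to 0.0799). All 6 but NDUFB10 are also seen in the 1 contrast that asks for the direction, the effect at 72 h minus that at 12 h, which was added after seeing the data. In it 8 members were higher and 0 lower, where 10% of all genes were higher and 9.83% lower. At an unadjusted p below 0.05 in limma there were 12 of 34 members, beside 29.1% of all genes. The median was 0.23 beside -0.02 over all genes. After the second quantile normalization 6 were higher and 2 lower, and with the replicate block 9 and 1. Without 10 mM APAP 12 h replicate 1 or without DMSO 72 h replicate 2, 5 were called.

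In this contrast CYC1 had the largest value, 1.22 ± 0.25 (SE; adjusted p = 0.000517), followed by NDUFB3 (1.01 ± 0.18) and NDUFS6 (0.71 ± 0.18). These 3 genes took different courses to it: CYC1 and NDUFS6 were below DMSO at 12 h and near it at 72 h, whereas NDUFB3 was near DMSO at 12 h and above it at 72 h. NDUFA2 (0.57 ± 0.11) was above DMSO at both times. COX7A2 (0.47 ± 0.15), NDUFV1 (0.40 ± 0.15) and ATP5C1 (0.44 ± 0.13) were called but not when 1 of the arrays was left out, with adjusted p-values up to 0.0778, 0.14 and 0.0742; NDUFC2 (0.55 ± 0.13) was called under each array left out. The contrast uses the same 12 and 72 h arrays as the changes with time above, so it is not separate evidence of them.

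**Figure D4:**
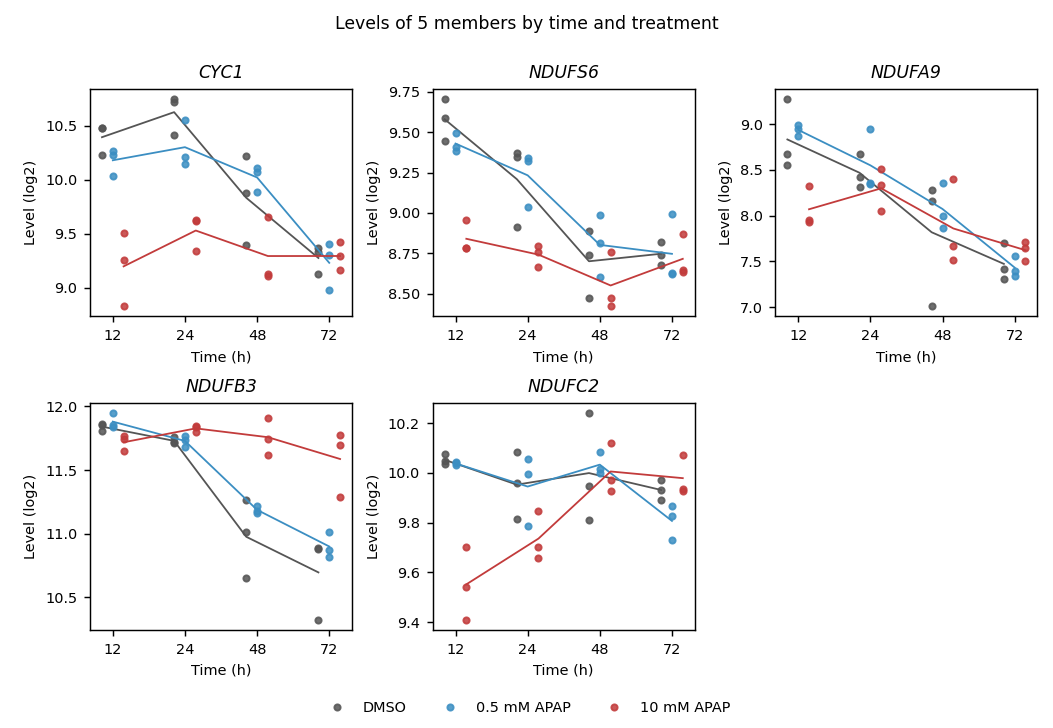
Log2 level by array (points) and group mean (lines) of CYC1, NDUFS6, NDUFA9, NDUFB3 and NDUFC2 against time in hours, in DMSO (grey), 0.5 mM APAP (blue) and 10 mM APAP (red), 3 arrays per group. At 12 h the red points of all 5 lie below the grey ones, and at 72 h they overlap with them except for NDUFB3, where they lie above.

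The third comparison asked whether the low dose moved the same transcripts. At 0.5 mM no member passed the test at any single time in limma. The number at an unadjusted p below 0.05 was 0, 3, 5 and 3 of 34 at 12, 24, 48 and 72 h, beside 4.57%, 6.17%, 14.4% and 9.88% of all genes at that cut-off. The shares of all genes called were 0.00529%, 0.0159%, 3.45% and 0.761%. The members' median changes were 0.04, 0.00, 0.05 and 0.03. At 48 h 1 member was called after median centring, 1 after a second quantile normalization, 1 among genes of above-median level and 1 without DMSO 48 h replicate 2. Averaged over times 3 members were higher and 0 lower, and 4.14% and 2.07% of all genes were. The members were NDUFA2 (0.18 ± 0.04, adjusted p = 0.00568), NDUFV1 (0.17 ± 0.05, adjusted p = 0.0364) and NDUFB5 (0.15 ± 0.04, adjusted p = 0.0339).

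NDUFA2 read 10.37, 10.32 and 10.32 after 12 h, 10.35, 10.35 and 10.25 after 24 h, 10.05, 10.21 and 9.99 after 48 h, and 9.72, 9.66 and 9.78 after 72 h at 0.5 mM, beside the DMSO values above, and the 0.5 mM arrays were all above the DMSO arrays at 12, 24, 48 and 72 h. Its changes were 0.11, 0.14, 0.27 and 0.19, each in the direction seen at 10 mM and none called singly; both comparisons use the same DMSO arrays. NDUFV1 had changes of 0.01, 0.30, 0.21 and 0.18 and NDUFB5 of 0.16, 0.11, 0.11 and 0.21. Without the 2 arrays with a large actin difference, without the 6 with weak spike-ins and after median centring 1 member was called, and leaving out single arrays gave 1 to 4, with 1 without 0.5 mM APAP 12 h replicate 3, 0.5 mM APAP 72 h replicate 3, DMSO 48 h replicate 1 or DMSO 72 h replicate 1. NDUFV1 lost its call without any one of 12 arrays (adjusted p up to 0.0853) and NDUFB5 without any one of 10 (0.0774). ATP5D, NDUFS1, NDUFB10 and CYCS, which differed from DMSO at all times at 10 mM, had averages of -0.10 ± 0.08, -0.12 ± 0.05, -0.14 ± 0.06 and -0.02 ± 0.05 at 0.5 mM, none called. The effect of 0.5 mM differed between times in 0 members (moderated F test in limma; 0 at an unadjusted p below 0.05, beside 6.16% of all genes), where 0.0846% of all genes passed.

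In the average over times, 19 of 34 members differed between 10 and 0.5 mM, with 6 higher and 13 lower at 10 mM (22% and 20.9% of all genes). The median difference was -0.11 beside -0.01 over all genes. After median centring 5 were higher and 19 lower. Without the 2 arrays with a large actin difference the counts were 6 and 10, and without the 6 with weak spike-ins 4 and 12. With only genes above the median mean level tested, 19 of 32 members and 6674 genes were called. The members' share was then below that of the genes tested. ATP5D (-1.11 ± 0.08), NDUFB10 (-0.72 ± 0.06), CYC1 (-0.61 ± 0.09) and NDUFS1 (-0.51 ± 0.05) were the members most below the low dose, and CYCS (0.56 ± 0.05) and NDUFA2 (0.47 ± 0.04) those most above it. The DMSO arrays do not enter these differences, but they do enter the common spread behind the standard errors and calls. For NDUFS1 the arrays at 0.5 mM read 9.25, 9.32 and 9.14 after 12 h and 9.20, 8.97 and 8.92 after 72 h, with those at 10 mM lower by 0.51 on average. Calls for UQCRB (adjusted p up to 0.0529), COX6C (0.0712), ATP5B (0.0621) and ATP5F1 (0.0668) were lost without 1 of the arrays.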

How the data were processed

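The deposited table holds log2 levels by Ensembl gene identifier, which the authors made with RMA per the submitters' processing notes; its settings and annotation are not known here. All 18919 gene rows were used without further normalization, and the 62 Affymetrix control rows only for quality. Groups came from sample titles. limma 3.58.1, run in R 4.3.3, fitted a linear model with 12 group means to 36 arrays (24 residual degrees of freedom, moderated by eBayes), and p-values were adjusted over all genes (Benjamini-Hochberg, threshold 0.05). Members, lists and comparisons were chosen with earlier results of these data known. Array values are given for the largest called changes by complex, members called at all times and the largest declines in DMSO; those of NDUFS6 and NDUFC2 were added after seeing values. Lists of other pathway genes and cell markers were not run, since identifiers could not be named. Replicate numbers from the titles were checked on deviations from group means: 20 of 24 same-number pairs had r over 0.1 (-0.03 to 0.35), all 3 pairs in 5 of 8 comparisons with DMSO, including 10 mM at 24, 48 and 72 h. The fit was checked on artificial arrays. Alternatives were single-time fits, the replicate block, median centring, quantile normalization, a level filter, a trended robust prior, array weights, each array left out and, added later, arrays with unusual controls left out. Figures used matplotlib 3.10.9.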

Additional observations from a re-analysis of the deposited data

Results flagged for a closer look

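By the moderated F test, 6 members had a 10 mM effect that varied with time, with adjusted p-values of 0.0143 for NDUFS6, 0.000385 for NDUFA2, 7.94e-05 for NDUFB3, 0.0331 for NDUFB10, 0.00757 for NDUFC2 and 0.0011 for CYC1. The effect at 72 h minus that at 12 h differed from 0 in 8 members, all in the positive direction: by 0.71 for NDUFS6, 0.40 for NDUFV1, 0.57 for NDUFA2, 1.01 for NDUFB3, 0.55 for NDUFC2, 1.22 for CYC1, 0.47 for COX7A2 and 0.44 for ATP5C1 (log2). Both tests take the difference itself, and for several of these genes the DMSO arrays changed more from 12 to 72 h than the 10 mM arrays: CYC1 by -1.12 against 0.10, NDUFB3 by -1.14 against -0.13 and NDUFS6 by -0.83 against -0.12. Groups of 3 arrays are too small for a formal search for single deviating arrays, and DMSO 48 h replicate 1 was named above from its values, without a test.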

How the results depend on the processing

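Of 160 calls of single members in the comparisons above, 104 were kept under every planned and added alternative and every left-out array, 56 were lost under 1 or more, and 0 changed sign. Counts of called members stayed within 1.5 times of those reported, with these exceptions and those among the ranges below. At 10 mM and 48 h, 7 were called with that time fitted alone instead of 11. The F test of the 10 mM effect over times called 11 with the replicate block and 10 with array weights instead of 6. At 0.5 mM and 48 h, 1 was called instead of 0 after median centring, after a second quantile normalization and among genes of above-median level. In the 0.5 mM average, 1 was called instead of 3 after median centring, without the arrays with a large actin difference and without those with weak spike-ins. The replicate block moved no other count by over 1.5 times. For changes from 12 to 72 h within a treatment it compares levels fitted for replicate 1, which is a different quantity. The median change of the members in DMSO was -0.32 with it instead of -0.29. Calls of such changes lost under the block are counted among the 56. With 1 array left out, the counts ranged as follows: at 10 mM, 10 to 13 (12 h), 8 to 10 (24 h), 8 to 12 (48 h), 10 to 14 (72 h) and 21 to 27 (average); at 0.5 mM, 0 at 12, 24 and 72 h, 0 to 1 at 48 h and 1 to 4 in the average. They ranged from 17 to 22 between doses, 16 to 20 for DMSO, 9 to 12 for 10 mM and 15 to 19 for 0.5 mM from 12 to 72 h. The F test gave 5 to 9 at 10 mM and 0 at 0.5 mM, and the added contrast 5 to 9. The cause of these shifts was not tested. Median centring moved the median gene by at most -0.05 (log2). Members near the array medians (2 of 34) are limited by signal over background, for which no value is given.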
